A study of Ovis aries with 8 samples.

Results

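The genes for the receptors of glutamate and GABA were examined in the mediobasal hypothalamus of food-restricted and well-fed adult ewes. They were taken from the table of read counts by symbol (AMPA, kainate, NMDA and delta subunits, metabotropic glutamate receptors, GABA-A and GABA-B subunits), with a total of at least 80 reads over all libraries. The symbols matched 48 of 33609 rows, and 45 of these had enough reads. Of the 45, 44 are receptor subunits, and the other is GRID2IP, whose symbol matches but which encodes an interacting protein and no receptor subunit. The rows left out were GRM6 with 15 reads in all, GABRA6 with 5 and GABRR3 with 1. The members nearest above the limit were GABRR1 with 158 reads, GABRR2 with 160, GABRP with 179, GRIN3B with 191 and GRID2IP with 200. All 45 members also passed the low-count filter of the test.

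All animals were Ile-de-France ewes. In each of 2 years 30 ewes were food-restricted and 30 were fed ad lib, which gives 60 ewes per group. RNA of 15 ewes was mixed at random into each pool, each group gave 4 pools, and n counts pools throughout. A pool averages over 15 animals, so the spread between pools is not that between ewes, and the year of a pool is not in the labels.

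Glutamate is the main excitatory transmitter of the brain and GABA the main inhibitory one. AMPA, kainate and NMDA receptors are tetrameric ion channels opened by glutamate, whereas the metabotropic receptors signal through G proteins. GABA-A receptors are pentameric chloride channels, commonly built from alpha, beta and gamma subunits, and GABA-B is a G protein-coupled pair of GABBR1 and GABBR2. In the arcuate nucleus, which lies in this tissue block, neurons that express AGRP release GABA and receive glutamatergic input. The subunits in a receptor set its conductance, kinetics and drug sensitivity.

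Libraries held between 36192025 and 48125991 counted reads. The first principal component of the 18148 tested genes outside the symbol rule held 34.6% of their variance and parted the pools across the feeding groups. Food-restricted pools 1 and 2 and well-fed pools 3 and 4 lay on its positive side, and the other 4 pools on its negative side. All 11 marker genes fixed for the mediobasal hypothalamus were expressed, and AGRP was the 1 gene of 18193 called between the groups. The cortical marker EMX1 was listed at 0 in all pools. Summed neuron markers (9 of 10 listed genes had a row) ranged from 4328 to 5084 CPM in food-restricted and from 4351 to 4990.4 CPM in well-fed pools, so the groups overlapped. CPM are reads per 1000000, scaled by TMM.

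No receptor subunit passed the test between food-restricted and well-fed pools. By edgeR's quasi-likelihood test, 0 of the 45 members passed an adjusted p of 0.05, against 0.0055% of all genes tested. At an unadjusted p under 0.05 there were also 0 members, against 1.7% of all genes (0.671% higher and 1.03% lower in food-restricted pools). DESeq2 called 0 members and found 0 at an unadjusted p under 0.05. Of the 45 members 24 had a fitted log2 fold change above 0, as had 52.9% of all genes, and 21 lay below 0, as did 47.1%. The median log2 fold change was 0.05 over the members and 0.01 over all genes. In tissue RNA, fewer cells of a type and less RNA per cell cannot be told apart, so a level here is that of the whole tissue block.

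The intervals of the difference show how far this result reaches. For 27 of the 44 subunits the 95% interval of the fold change lay within 1.5-fold in either direction, and for 37 it lay within 2-fold. The 7 whose interval reached 2-fold included GRIN3B, GRM4, GABRG3, GABRP, GABRR1 and GABRR2. Of all 7 only GRM4 was above 10 CPM on average, and 4 were under 1 CPM. Among the 31 subunits with a mean of 10 CPM or more, 30 had an interval within 2-fold, and the largest absolute log2 fold change was 0.30, of GABRB1.

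**Figure D1:**
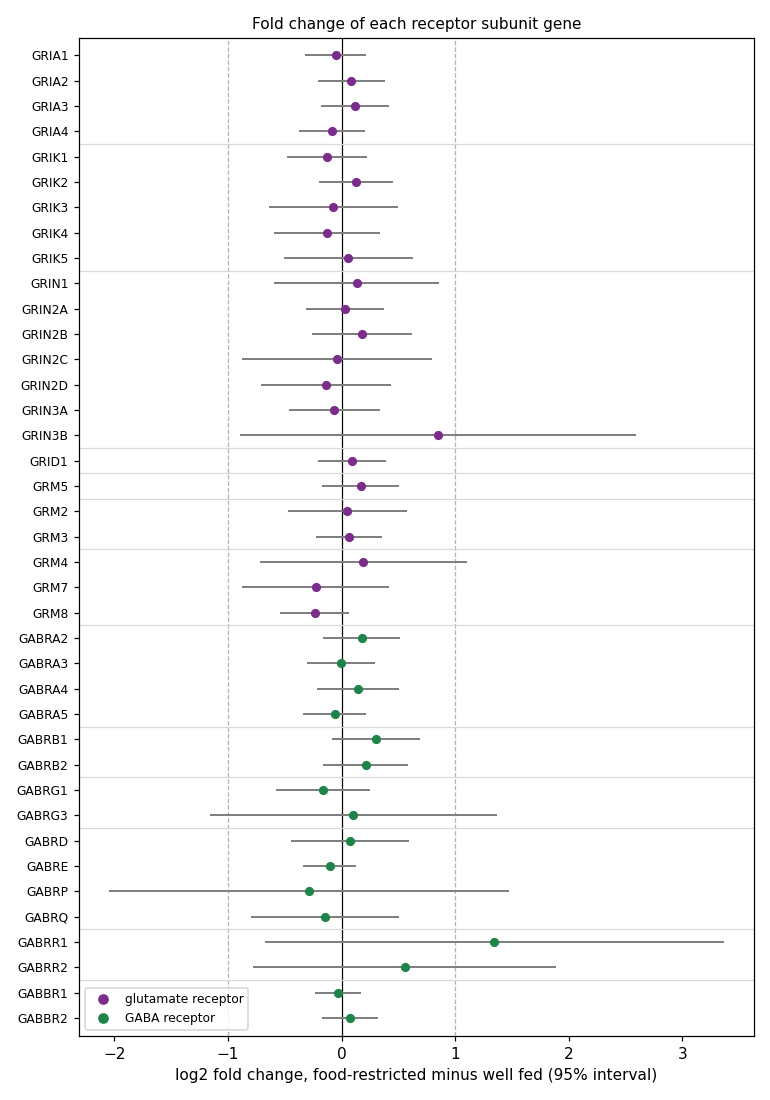
Log2 fold change (food-restricted minus well fed, x axis) of 39 receptor subunit genes, grouped by receptor class from top to bottom. Points are edgeR estimates, bars are 95% intervals and dashed lines mark a 2-fold change; all 39 intervals cross 0, and the widest belong to genes of few reads such as GABRR1, GABRP and GRIN3B.

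Transcript lengths were not used here, so levels of different genes are given as reads. A share of reads mixes abundance with transcript length and is no share of molecules. By reads, 6 subunits had a mean of 100 CPM or more, among them GABBR1, GRIA1, GRIN1 and GABRA3. A further 25 lay from 10 to under 100 CPM, 9 from 1 to under 10, and 4 below 1 CPM. The last 4 were GRIN3B, GABRP, GABRR1 and GABRR2. Summed over all 44 subunits, the pools held between 2424 and 2809 CPM, with 2638 ± 57.5 CPM in food-restricted and 2605 ± 182 CPM in well-fed pools (SD, n = 4 each).

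**Figure D2:**
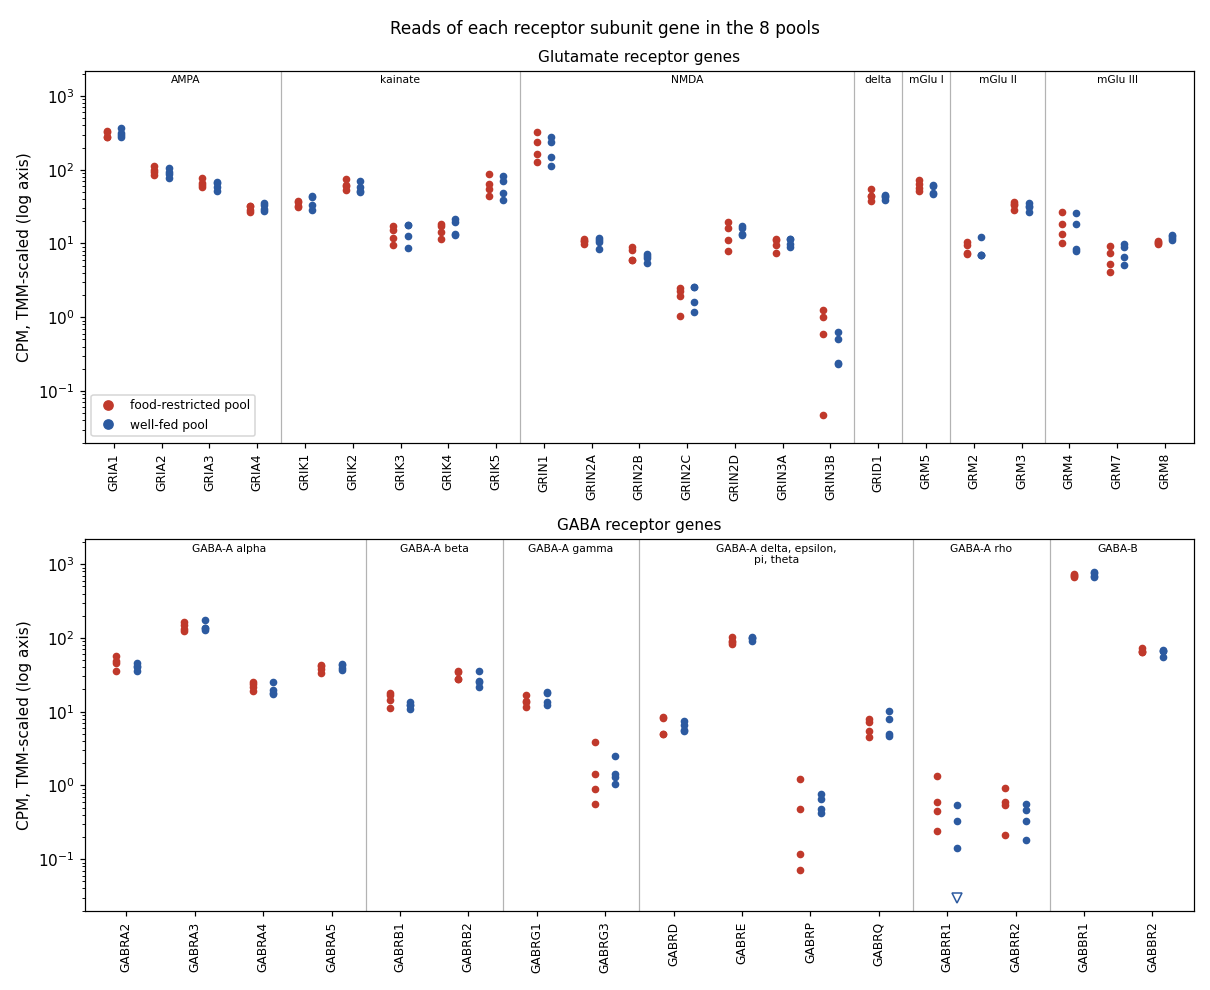
TMM-scaled CPM (log axis) of each of 39 receptor subunit genes in the 4 food-restricted and the 4 well-fed pools, by receptor class. Each point is a pool and the open triangle is the 1 pool with 0 reads, well-fed pool 2 for GABRR1; the colours overlap for every plotted gene except GRM8, and GRIN1 and GRM4 are spread widely within both groups.

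AMPA receptors carry most fast excitation, and GRIA1 held most of the reads of this class. GRIA1 (gene ID 443271) was at 274, 278, 335 and 325 CPM in food-restricted pools 1 to 4 and at 369, 300.1, 312 and 276 CPM in well-fed pools 1 to 4. The highest and the second lowest value were both of well-fed pools, and the groups overlapped (log2 fold change -0.05, SE 0.12). GRIA1 took 62.1% ± 1.45 of AMPA reads (SD over 8 pools), GRIA2 18.9%, GRIA3 12.8% and GRIA4 6.19%. This order was the same in all 8 pools. GRIA2 is the subunit that, once its RNA is edited, makes AMPA channels nearly impermeable to calcium. It was at 96.7 ± 11.6 CPM in food-restricted and 91.1 ± 12 CPM in well-fed pools (SD, n = 4 each), and counts per gene do not show editing. GRIA3 had a log2 fold change of 0.11 (SE 0.13) and GRIA4 one of -0.08 (SE 0.13), so the class was split 2 and 2, with a median of 0.02.

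Kainate receptors act before and behind the synapse, and their reads were divided between GRIK5 and GRIK2. GRIK5 (gene ID 101103501), which assembles only with GRIK1 to GRIK3, was at 54.9, 86.2, 44.7 and 64.4 CPM in food-restricted pools 1 to 4. In well-fed pools 1 to 4 it was at 49.0, 38.8, 82.3 and 69.9 CPM. Both groups held high and low pools in a range of 2.22-fold, and the log2 fold change between the groups was 0.06 (SE 0.25). GRIK2 took 32.2% ± 5.38 of kainate reads and GRIK5 32.6% ± 7.69 (SD over 8 pools), and GRIK5 was ahead in 4 of 8 pools, so these neighbours in the order did not differ beyond their spread. GRIK1 followed with 19.4%, GRIK4 with 8.53% and GRIK3 with 7.29%. GRIK4 was ahead of GRIK3 in 7 of 8 pools, so these neighbours did not keep 1 order. In the fit 2 of the 5 genes were above 0 and 3 below, between -0.13 and 0.13, with a median of -0.07.

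The delta receptors resemble ionotropic glutamate receptors but are not opened by glutamate. GRID1 (gene ID 101114332) was at 44.2, 55.2, 38.3 and 44.2 CPM in food-restricted pools 1 to 4 and at 44.6, 38.7, 45.3 and 42.5 CPM in well-fed pools 1 to 4. Food-restricted pool 2 was the highest and pool 3 the lowest, and the groups overlapped (log2 fold change 0.09, SE 0.13). GRID2IP was at 0.563 ± 0.433 CPM in food-restricted and 0.630 ± 0.401 CPM in well-fed pools (SD, n = 4 each).

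NMDA receptors are calcium-permeable channels that need glutamate and a coagonist, and every one contains GRIN1. GRIN1 (gene ID 443281) was at 235, 326, 127 and 166 CPM in food-restricted pools 1 to 4 and at 150.3, 113, 281 and 235 CPM in well-fed pools 1 to 4. Each group had pools near the bottom and near the top of a 2.89-fold range, and the difference between the groups was small beside it (log2 fold change 0.13, SE 0.33). With 80.6% ± 5.41 of the reads of the class (SD over 8 pools), GRIN1 also set the class sum, which ranged from 156 to 374 CPM.

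Of the subunits that join GRIN1, GRIN2D had the most reads on average, with 5.91% ± 1.152 of the class (SD over 8 pools). It was ahead of GRIN2A in 7 of 8 pools, so these neighbours did not keep 1 order. GRIN2A with 4.76% ± 1.74 was ahead of GRIN3A with 4.61% ± 1.95 in 4 of 8 pools, so these neighbours did not differ beyond their spread. GRIN2D, which gives slow, weakly magnesium-blocked channels, was at 13.6 ± 5.13 CPM in food-restricted and 15.0 ± 2.18 CPM in well-fed pools (SD, n = 4 each). GRIN2A, found in many mature synapses, was at 10.8 ± 0.703 against 10.5 ± 1.47 CPM. GRIN2B, which binds many signalling proteins through its long tail, was at 8.24, 5.94, 8.96 and 6.0 CPM in food-restricted pools 1 to 4 and at 6.83, 6.29, 5.50 and 7.10 CPM in well-fed pools 1 to 4. Its highest values were those of food-restricted pools 1 and 3, and the groups overlapped (log2 fold change 0.18, SE 0.19). GRIN2C was near 2 CPM in both groups. GRIN3A, which lowers calcium entry, was at 9.97 ± 1.84 against 10.4 ± 1.21 CPM. GRIN3B was at 1.26, 1.01, 0.0467 and 0.593 CPM in food-restricted pools 1 to 4 and at 0.242, 0.234, 0.625 and 0.507 CPM in well-fed pools 1 to 4. The lowest of these values rests on 2 reads, and the log2 fold change of 0.85 had an SE of 0.79. Of the 7 NMDA genes 4 were above 0 and 3 below, with a median of 0.03.

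Among metabotropic receptors the group I receptor GRM5 and the group II receptor GRM3 had the most reads. GRM5 (gene ID 443069), which couples to phospholipase C, was at 57.2, 51.3, 72.7 and 63.9 CPM in food-restricted pools 1 to 4 and at 62.9, 60.3, 48.8 and 46.2 CPM in well-fed pools 1 to 4. The top values were of food-restricted pools 3 and 4, and the groups overlapped (log2 fold change 0.17, SE 0.15). GRM3 (gene ID 101113057), which lowers cyclic AMP and is also found on astrocytes, was at 34.2, 33.0, 36 and 28.8 CPM in food-restricted pools 1 to 4 and at 32.6, 31.4, 35.2 and 26.8 CPM in well-fed pools 1 to 4. Its largest and smallest pool differed by 1.34-fold (log2 fold change 0.07, SE 0.13). GRM2 was at 8.67 ± 1.61 against 8.36 ± 2.71 CPM.

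Group III receptors sit mostly on nerve endings and reduce transmitter release, and here lay the 1 member whose groups did not overlap. GRM8 (gene ID 101108742) was at 10.8, 10.2, 9.78 and 10.4 CPM in food-restricted pools 1 to 4 and at 13.1, 12.5, 11.3 and 11.7 CPM in well-fed pools 1 to 4. Its highest food-restricted value was under its lowest well-fed value. Groups without overlap were found in 1 of 45 members (2.22%) and in 1.6% of all genes tested, 1.1% with the food-restricted pools lower. The log2 fold change was -0.24 (SE 0.13, interval -0.53 to 0.05), and GRM8 did not pass (edgeR adjusted p = 1, unadjusted p = 0.0995). It also had the smallest spread within groups of all members, 0.08 on the log2 CPM scale against a median of 0.23 over the members. GRM4 (gene ID 101119427) was at 18.6, 27.1, 10.1 and 13.3 CPM in food-restricted pools 1 to 4 and at 8.46, 7.85, 25.9 and 18.3 CPM in well-fed pools 1 to 4. Both groups spanned nearly the whole 3.46-fold range (log2 fold change 0.19, SE 0.41). GRM4 had more reads than GRM8 in 6 of 8 pools, so these neighbours did not keep 1 order. GRM7 was at 6.54 ± 2.33 against 7.65 ± 2.2 CPM, and GRM6, known from retinal bipolar cells, had 5 reads in food-restricted pool 4, 0 in the other food-restricted pools, and 5, 1, 2 and 2 reads in well-fed pools 1 to 4.

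The alpha subunits of GABA-A receptors set benzodiazepine sensitivity, and by reads GABRA3 led them in all 8 pools. GABRA3 (gene ID 101113565) was at 133, 124, 163 and 152 CPM in food-restricted pools 1 to 4 and at 173, 135, 137 and 129 CPM in well-fed pools 1 to 4. Both group means were 143 CPM, with SDs of 18.0 and 20.01 (n = 4 each), and the interval of the log2 fold change was -0.29 to 0.29. GABRA3 took 50.6% ± 1.80 of alpha reads (SD over 8 pools), GABRA2 15.5%, GABRA5 14.2% and GABRA4 7.47%. GABRA2 was ahead of GABRA5 in 5 of 8 pools, so these neighbours did not keep 1 order. GABRA2 was at 45.4, 35.8, 56.3 and 49.1 CPM in food-restricted pools 1 to 4 and at 46.0, 40.8, 36 and 42.2 CPM in well-fed pools 1 to 4. The top values were food-restricted, and so was the lowest (log2 fold change 0.18, SE 0.15). GABRA6, the alpha subunit of cerebellar granule cells, had 5 reads in well-fed pool 3 and 0 in the other 7 pools. A count of 0 allows up to 3 reads, which is at most 0.0845 CPM in these libraries and covers counting error only.

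The 3 beta subunits, which help form the GABA binding site, were all above 0 in the fit, with a median of 0.21, and none passed. GABRB1 (gene ID 101122358) was at 17.8, 11.1, 16.8 and 14.5 CPM in food-restricted pools 1 to 4 and at 13.7, 12.1, 12.1 and 11 CPM in well-fed pools 1 to 4. Food-restricted pools 1, 3 and 4 exceeded the highest well-fed value, and pool 2 did not (log2 fold change 0.30, SE 0.17; edgeR adjusted p = 1, unadjusted p = 0.106). With each pool left out in turn its log2 fold change ran from 0.22 to 0.44. The highest was without food-restricted pool 2 (edgeR adjusted p = 0.964). GABRB2 was at 28.1, 28.0, 34.2 and 35.2 CPM in food-restricted pools 1 to 4 and at 35.4, 21.7, 26.1 and 25.2 CPM in well-fed pools 1 to 4. Well-fed pool 1 was its highest pool, and the other 3 well-fed pools were below all food-restricted pools (log2 fold change 0.21, SE 0.17). Leaving out each pool in turn gave log2 fold changes of GABRB2 from 0.12 to 0.37, the highest without well-fed pool 1 (edgeR adjusted p = 1).

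A gamma subunit anchors GABA-A receptors at synapses. GABRG1 was at 13.8 ± 2.2 against 15.5 ± 3.14 CPM (SD, n = 4 each), and GABRG3 at 1.68 ± 1.49 against 1.56 ± 0.627 CPM. Both overlapped between the groups, with log2 fold changes of -0.16 for GABRG1 and 0.10 for GABRG3. GABRG3 reached 3.84 CPM in food-restricted pool 1 and was 0.560 CPM in food-restricted pool 3.

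The epsilon subunit GABRE, known in other species mainly from hypothalamus and brainstem, was among the GABA-A subunits with many reads. GABRE (gene ID 101106150) was at 87.1, 92.0, 83.7 and 102 CPM in food-restricted pools 1 to 4 and at 99.0, 91.1, 101 and 102 CPM in well-fed pools 1 to 4. The lowest 2 pools were food-restricted, and the groups overlapped (log2 fold change -0.11, SE 0.10, interval -0.33 to 0.12). It took 13.3% ± 1.55 of all GABA-A reads and GABRA3 took 19.9% ± 1.02 (SD over 8 pools). The theta subunit GABRQ was at 6.32 ± 1.58 against 6.97 ± 2.71 CPM (SD, n = 4 each). The delta subunit GABRD, of extrasynaptic receptors that respond to ambient GABA, was at 6.66 ± 1.95 against 6.34 ± 0.936 CPM. The pi subunit GABRP was at most 1.24 CPM in any pool.

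The rho subunits, best known from the retina, were rare. GABRR1 was at 0.445, 0.239, 1.35 and 0.593 CPM in food-restricted pools 1 to 4 and at 0.330, 0, 0.542 and 0.141 CPM in well-fed pools 1 to 4. Its log2 fold change of 1.34 had an SE of 0.91, the widest interval of all members (-0.67 to 3.36), and it was 0.72 without food-restricted pool 3 and 2.04 without well-fed pool 3. GABRR2 was at 0.913, 0.551, 0.210 and 0.593 CPM in food-restricted pools 1 to 4 and at 0.461, 0.182, 0.334 and 0.563 CPM in well-fed pools 1 to 4. Its groups overlapped as well (log2 fold change 0.56, SE 0.60; 0.23 without food-restricted pool 1 and 0.33 without well-fed pool 2).

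GABA-B receptors need GABBR1 to bind GABA and GABBR2 to reach the surface and engage the G protein. GABBR1 (gene ID 101110007) had the most reads of all members, at 696, 742, 680.1 and 708 CPM in food-restricted pools 1 to 4 and at 779.7, 681, 763 and 672 CPM in well-fed pools 1 to 4. The highest pool was 1.16-fold above the lowest, and the interval of the log2 fold change was -0.23 to 0.16. GABBR2 was at 67.4 ± 3.55 against 64.2 ± 5.74 CPM (SD, n = 4 each; log2 fold change 0.07, SE 0.11). GABBR1 gave 91.6% ± 0.618 of GABA-B reads (SD over 8 pools), a ratio of reads between 9.35 and 12.04.

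**Figure D3:**
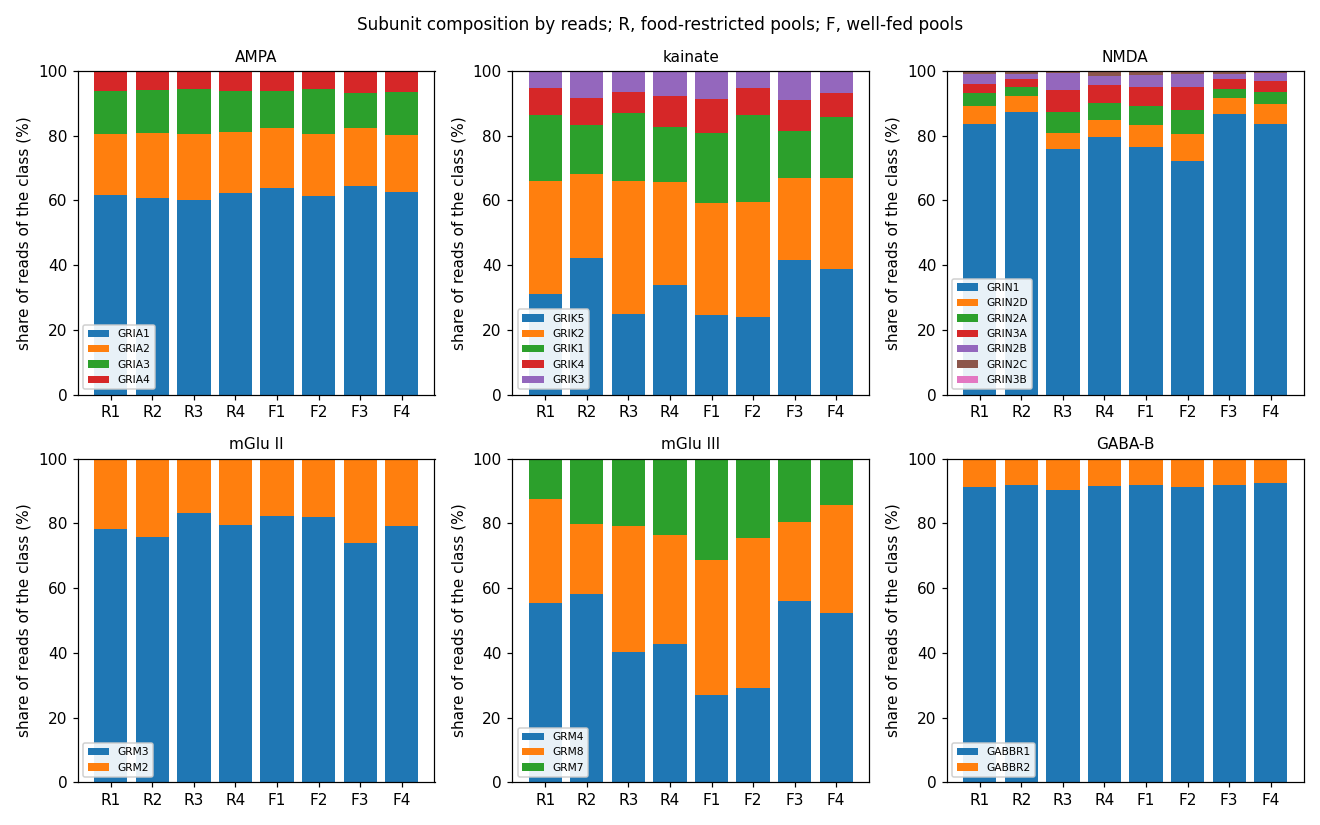
Share of reads (%) of each subunit gene within 6 receptor classes, as stacked bars for food-restricted pools R1 to R4 and well-fed pools F1 to F4. The AMPA, NMDA, mGlu II and GABA-B bars have the same leading subunit in all 8 pools, whereas the share of GRIK5 varies from 23.9% to 42.1% and that of GRM4 from 26.8% to 58.1%.

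Pairs of subunits of 1 receptor family, some interchangeable and some partners in 1 receptor, were compared as ratios of reads inside each pool, which do not depend on library scaling. None of 9 ratios passed after adjustment over the 9 (exact two-sided permutation test, lowest adjusted p = 0.257). The values of 6 are given, and the smallest unadjusted p that 4 pools against 4 allow is 0.0286. GRIA1 to GRIA2 was 3.25, 3.01, 2.99 and 3.32 in food-restricted pools 1 to 4 and 3.46, 3.26, 3.57 and 3.54 in well-fed pools 1 to 4. Food-restricted pools were lower on average by 0.14 on the log2 scale, and 1 well-fed pool lay inside the food-restricted range (exact permutation p = 0.0571, adjusted p = 0.257). For GRIN2A to GRIN2B the difference was -0.12 (exact permutation p = 0.457) and for GABBR1 to GABBR2 it was -0.11 (exact permutation p = 0.229). For GRIN2D to GRIN2B, GRIN3A to GRIN1 and GABRE to GABRQ the exact permutation p was 0.429 or more.

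**Figure D4:**
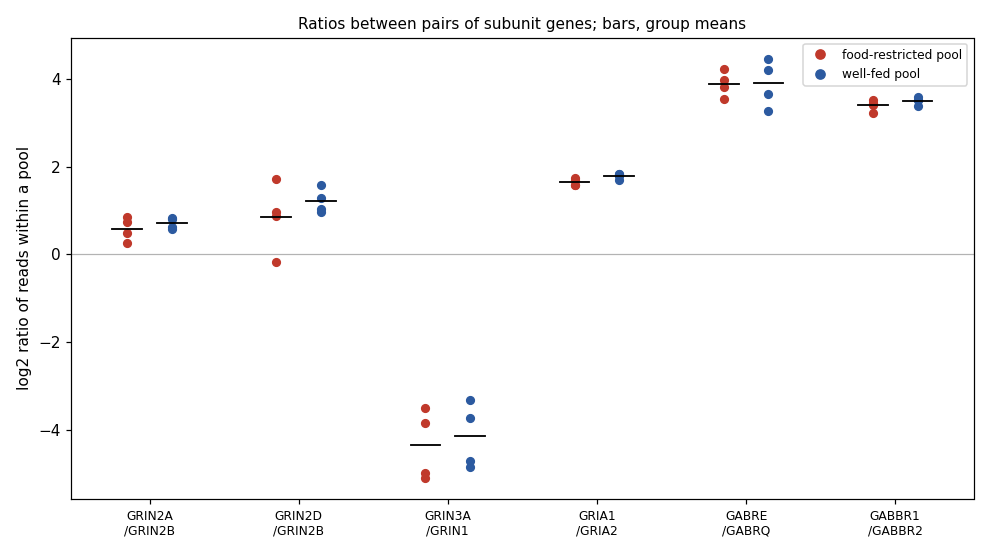
Log2 ratio of reads between 6 pairs of subunit genes (y axis), with a point per pool and a bar at the group mean. The 2 groups overlap for all 6 pairs, and GRIN3A to GRIN1 splits into high and low pools inside both groups.

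Several members followed the side of the first principal component, at a share near that of all genes. Of the 45 members 8 had all 4 pools of one side above all 4 of the other, which is 17.8%, against 23.1% of all genes tested. The genes outside the symbol rule set the sides and the members did not, so these shares are not like for like. The 4 higher on the positive side (14.2% of all genes) were GRIN1, GRM4, GRIN2D and GRID2IP, and the 4 lower there (8.93% of all genes) included GRIA3, GRIN3A and GRM5. On the positive side GRM4 was 2.26-fold, GRIN1 1.94-fold and GRIN2D 1.53-fold higher, and these sides come from the data, so no test is given. GRIK5 was 1.49-fold higher there with overlap between the sides. On the negative side GRM5 was 1.28-fold, GRIN3A 1.27-fold and GRIA3 1.21-fold higher, while GABBR1 was equal within 1.01-fold. Inside the positive side food-restricted over well-fed GRIN1 was 1.09-fold and inside the negative side 1.11-fold. Markers of other cell types moved in both directions between the sides. Of 6 oligodendrocyte markers 3 were higher on the positive side, led by MBP (2292 against 1219 CPM), and 3 were lower, and their sum averaged 4849.7 and 3931 CPM. Of 6 astrocyte markers 4 were higher there and 2 lower. Their sum of 8002 against 7072 CPM was mostly GFAP (6716 against 5996 CPM), and GJA1 was lower in all 4 positive-side pools than in any other (0.830-fold). Of 9 neuron markers 3 were higher (RBFOX3 1.26-fold, SYN1 and ELAVL3 1.11-fold) and 6 lower, with sums of 4402 and 4852 CPM. Of the 11 markers of the mediobasal hypothalamus 10 were higher there, and their sum was 882 against 579 CPM. The largest difference was of POMC (276 against 74.7 CPM), and 2 of the 11 had all 4 positive-side pools above the other 4. Of 6 tested pituitary markers 3 were higher there and 3 lower, with sums of 3719 and 3022 CPM. Of 4 endothelial markers 2 were higher and 2 lower, with sums of 140 and 123 CPM. The part of these cell types and regions in the receptor values was not tested.

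**Figure D5:**
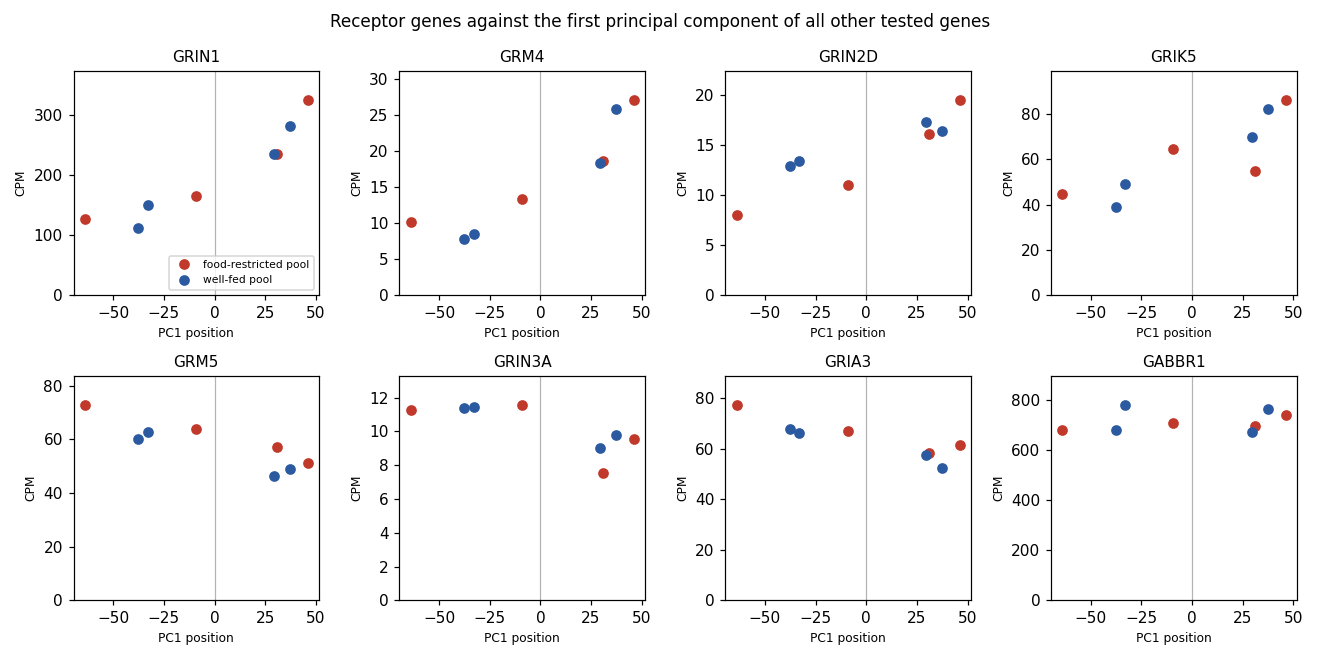
CPM of 8 receptor genes (y axes start at 0) against each pool's position along the first principal component of the tested genes outside the symbol rule, chosen after their values were seen. GRIN1, GRM4 and GRIN2D are higher in the 4 pools right of 0, GRM5, GRIN3A and GRIA3 are lower there, and both sides hold 2 pools of each feeding group.

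No gene of 6 lists of partners passed the test either. The lists hold auxiliary subunits, scaffolds of both kinds of synapse, genes of transmitter supply and glycine receptors. The GABA-synthesising enzymes GAD1 and GAD2 overlapped between the groups. GAD1 was at 141 ± 5.76 CPM in food-restricted and 138 ± 13.1 CPM in well-fed pools, and GAD2 at 108 ± 7.07 and 109 ± 6.97 CPM (SD, n = 4 each). The intervals of their log2 fold changes, -0.19 to 0.26 and -0.24 to 0.20, lay within 1.5-fold. The vesicular GABA transporter SLC32A1 was at 33.1 ± 12.6 against 32.6 ± 10.5 CPM and was 1.74-fold higher on the positive side of the first principal component. Of 7 genes of GABA supply 5 were above 0 and 2 below (median 0.03). ABAT, which breaks GABA down, was at -0.05.

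SLC17A6, the vesicular glutamate transporter of most hypothalamic glutamate neurons, was at 131, 112, 162 and 128 CPM in food-restricted pools 1 to 4 and at 138, 111, 107 and 97.1 CPM in well-fed pools 1 to 4 (log2 fold change 0.23, SE 0.14). Its groups overlapped, and SLC17A8, another transporter of this family, was at 1.40 ± 0.353 against 2.28 ± 0.791 CPM (SD, n = 4 each). GLUL, the glutamine synthetase of astrocytes, had a log2 fold change of -0.16 (SE 0.10), and 7 of 10 genes of glutamate supply were above 0 (median 0.06).

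Among 17 auxiliary subunits of glutamate receptors, GSG1L was the 1 gene at an unadjusted p under 0.05 with a positive fold change, as were 0.671% of all genes. GSG1L, which modulates AMPA receptor gating, was at 12.1, 12.4, 11.2 and 11.4 CPM in food-restricted pools 1 to 4 and at 8.41, 8.24, 8.61 and 10.1 CPM in well-fed pools 1 to 4. The lowest food-restricted value exceeded the highest well-fed value, as in 0.495% of all genes (log2 fold change 0.41, SE 0.14; edgeR adjusted p = 1, unadjusted p = 0.0139). The rarer CNIH3 and CACNG5 had log2 fold changes of -0.81 (SE 0.57) and -0.70 (SE 0.56). The list had 6 genes above 0 and 11 below, with a median of -0.04.

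Of 16 scaffold genes of glutamate synapses 5 were above 0 and 11 below (median -0.02). By edgeR's test 1 of the 16, not reported by name here, had an unadjusted p under 0.05, against 1.7% of all genes. HOMER2, which links group I metabotropic receptors to the scaffold, had a log2 fold change of -0.35 (SE 0.21) and DLG4, the scaffold PSD-95, -0.19 (SE 0.12). At GABA synapses 6 of 14 tested scaffold genes were above 0 and 8 below (median -0.03). NLGN2, the adhesion protein of inhibitory synapses, was at 133, 147, 129.7 and 136 CPM in food-restricted pools 1 to 4 and at 150.0, 154, 149.8 and 158 CPM in well-fed pools 1 to 4. Its groups did not overlap, with the food-restricted pools lower, as in 1.1% of all genes, and it did not pass (log2 fold change -0.17, SE 0.09; edgeR adjusted p = 1). Gephyrin, GPHN, which clusters GABA-A and glycine receptors, was at 48.2 ± 5.29 against 41.9 ± 4.13 CPM (log2 fold change 0.20, SE 0.12), and KCTD12, a partner of GABA-B receptors, had 0.15 (SE 0.14). Of the 5 glycine receptor genes GLRB had the most reads, at 62.9 ± 12.5 against 55.4 ± 5.78 CPM (SD, n = 4 each), GLRA1 had a log2 fold change of 0.16 (SE 0.32) and GLRA2 one of -0.10 (SE 0.20). That list had 3 genes above 0 and 2 below, with a median of 0.15.

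Many GABA-A subunit genes lie next to each other. In RefSeq (sheep assembly ARS-UI_Ramb_v3.0), GABRB2 and GABRA6 follow each other among protein-coding genes and had 9905 and 5 reads over all pools. GABRA5 and GABRG3, also adjacent, had 13410 and 541 reads. The adjacent GABRG1 and GABRA2 had 4941 and 14806 reads, and GABRQ and GABRA3 had 2277 and 48437. GABRA4 and GABRB1, with 7134 and 4620 reads, were nearer to each other, and GABRR2 and GABRR1 had almost equal totals, 160 and 158. In single pools the share of GABRR2 in the reads of this last pair ran from 13.4% to 100%. In RefSeq a protein-coding gene overlaps GRIN1 (LRRC26), GRIN2D (KDELR1), GRIN3A (PPP3R2), GRIN3B (TMEM259) and GABRB1 (LOC132659947). The strand setting of the counting is not given in the sources used here, so the levels of these 5 are uncertain.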

How the data were processed

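RNA sequencing of 8 pools (4 food-restricted, 4 well fed) gave raw read counts per gene, deposited by the authors in 1 table. The submitters' processing notes name featureCounts 2.0.0, TopHat2 2.1.1 and Bowtie2 2.3.5.1 among the tools. The genome build and strand setting of the counting are not given in the sources used. Libraries were TruSeq stranded mRNA, per the labels' protocols. Nothing in the labels says whether an ewe entered more than 1 pool, so p-values measure the spread between these pools.

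In R 4.3.3, edgeR 4.0.16 kept 18193 genes (filterByExpr, minimum count 10, minimum total 15), scaled by TMM, and the quasi-likelihood test compared the 2 groups without covariates. Adjusted p-values (Benjamini-Hochberg) cover all genes kept, with a threshold of 0.05. SE is the absolute log2 fold change over the square root of F, and intervals (95%) use the t distribution of the fit. Ratios had a count of 0.5 added. The tests were tested on simulated data. Levels per transcript length had been planned but no transcript length was used, so classes were ordered by reads. Members with values in every pool are the subunit with most reads of each class and the 10 with the smallest p; of each partner list the 3 smallest p, and always GAD1, GAD2, SLC32A1, SLC17A6 and GPHN. Some members, partner genes and ratios entered every fit, adjustment and count but are not reported by name here. Other named genes were chosen after their values were seen. Members and lists were chosen with earlier results of these data known. RefSeq names matched 28100 (83.6%) of the gene IDs. Alternatives were 2 other scalings, no low-count filter, DESeq2 1.42.0, a block of replicate numbers, a block of principal component sides, and each pool left out.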

Additional observations from a re-analysis of the deposited data

Results flagged for a closer look

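In 142 sets of 4 pools (members, class sums and ratios by group), 6 had 1 pool far from the other 3 by Dixon's test, where chance flags about 1 in 20, or 7.1 sets. GRM2 was at 12.43 CPM in well-fed pool 3, while the next well-fed pool was at 7.053 CPM. GABBR2 was at 72.72 CPM in food-restricted pool 3 and the next at 66.13 CPM. The summed group II metabotropic receptors were at 36.22 CPM in food-restricted pool 4, below 43.26 CPM in the next pool. The summed GABA-A alpha subunits were at 324.1 CPM in well-fed pool 1, above 269.9 CPM. The summed delta, epsilon, pi and theta subunits were at 103.3 CPM in well-fed pool 2, below 114.7 CPM. The summed ionotropic glutamate receptors were at 1097 CPM in food-restricted pool 2, above 970.3 CPM.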

How the results depend on the processing

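No member was called under any of the 14 alternatives. At an unadjusted p under 0.05 there were 0 members in 12 of them, 2 without food-restricted pool 2 and 1 without well-fed pool 1. The count of all genes called was 1, and it was 4 with DESeq2, 6 with a block of principal component sides, 0 with the replicate block and 0 with any pool left out; the cause was not tested. Same-numbered pools had correlations of deviations between -0.42 and -0.21, and 0 of 8 pools correlated best with their own number. These values show no pairing by number. Same-numbered pools always lay on opposite sides of the first principal component, which lowers such correlations, so the check cannot exclude a pairing. With the replicate block the median of the GABA-A gamma subunits was -0.16 against 0.09, and with a pool left out it was -0.15 to 0.19. That of the beta subunits was 0.13 to 0.36. With a pool left out the sign of the median also turned for all members (-0.022 to 0.063) and for the AMPA (-0.048 to 0.095), kainate (-0.13 to 0.069), NMDA (-0.026 to 0.13), group I (-0.097 to 0.13) and group II (-0.014 to 0.23) metabotropic, GABA-A alpha (-0.052 to 0.10) and GABA-B (-0.030 to 0.057) genes. GABRR1 was 0.72 to 2.04 and GABRR2 0.23 to 0.83.

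GABRA3 had a log2 fold change of 0.0045 with size factors of the DESeq2 kind and 0.0044 with DESeq2. With a pool left out the sign turned for GABRA3 (-0.073 to 0.10), GRIA1 (-0.11 to 0.034), GRIK5 (-0.12 to 0.26), GRIN1 (-0.13 to 0.37), GRID1 (-0.00071 to 0.16), GRM4 (-0.10 to 0.59), GRM3 (-0.0031 to 0.14) and GABBR1 (-0.070 to 0.0076). Ratios turned for GRIN3A to GRIN1 (-0.49 to 0.072) and GABRE to GABRQ (-0.23 to 0.17). Within the positive side GRIN2A to GRIN2B was 0.0067, and within the negative side GABRE to GABRQ was 0.28. GRM8 stayed between -0.26 and -0.20 with a pool left out. The 4 subunits under 1 CPM had intervals that all reach 2-fold, and the part of depth in this was not tested.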
